A study of Chlorocebus aethiops with 3 samples.

Results

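Nuclear-encoded subunits of the respiratory chain and of ATP synthase were followed in heavy polysome RNA after knockdown of RNA helicase A (RHA). The members were 39 RefSeq accessions of complex II (succinate dehydrogenase), complex III (cytochrome bc1), complex IV (cytochrome c oxidase) and ATP synthase, with cytochrome c. They were chosen by accession, as a gene family, among all non-control spots, with earlier results of these data known. Each accession was represented by its probe with the highest mean log2 signal. Of the 39 accessions, 33 were matched to spots, by 45 probes, among 32695 accessions in all. The test covered 31 of the 33, among 14522 accessions tested. The files pair probes with accessions and not with gene symbols. The symbols used here come from general knowledge of these RefSeq records.

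Most subunits of these machines are encoded in the nucleus, translated on cytosolic ribosomes and imported into mitochondria, while a small core of complexes III, IV and V is encoded by mitochondrial DNA and made inside the organelle. Complex II feeds electrons from succinate to ubiquinone, complex III passes them to cytochrome c, and complex IV passes them to oxygen. ATP synthase uses the resulting proton gradient. Because the subunits assemble in fixed ratios, the polysome loading of their mRNAs is of interest member by member.

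The cells were COS-7, a line derived from African green monkey kidney and transformed with SV40 large T antigen. All samples were of this line. In the knockdown group the cells received siRNAs against the coding region of human RHA (encoded by DHX9) at 0.5 nM. In the control group they received scrambled siRNA. Both groups were kept for 4 hours without serum at transfection and then for 24 hours in medium with 10% serum, and after a split the transfection was repeated. Cytoplasmic lysates were run on sucrose gradients of 15% to 45%, and RNA of the heavy polysome fractions was put on 3 Agilent 2-colour arrays, labelled as biological replicates 1 to 3. Control RNA was always in Cy3 and knockdown RNA always in Cy5, so an effect of the dye and an effect of the knockdown cannot be told apart. The series asked how polysome loading changed when RHA was down-regulated. A ratio here reports the amount of an mRNA in heavy polysomes relative to the other mRNAs there. Fold changes and fractions of the control amount given below are meant in this relative sense. They hold for the default normalization and change with it. Less of an mRNA in the cell and fewer of its copies in heavy polysomes cannot be told apart, nor can fewer affected cells and less RNA per cell.

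The probes were made for human sequence and the RNA was from a monkey. In the control channel 37.5% to 50.7% of probes were well above background, and in the knockdown channel 45.5% to 53.1%. Replicate 3 had the highest share in both channels. The labels name RHA by its accession, NM_001357, and its 2 tested probes lay below 0 on 3 of 3 arrays with mean log2 ratios of -0.33 and -0.28. The limma adjusted p were 0.210 and 0.217, past the threshold for neither, so a fall of the target was not established in this fraction. Markers of the cell type were not checked, since the lists were by symbol and no symbol table was used here.

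Among the 31 tested members, 2 rose and 6 fell past the threshold, and 23 did not pass it. Cytochrome c rose 2.07-fold and UQCRH of complex III 1.38-fold. The members that fell were the rotor shaft of ATP synthase, ATP5C1, 4 subunits of complex IV (COX4I1, COX5A, COX5B and COX7B), and the membrane anchor SDHD of complex II. The test was limma's moderated test of the log2 ratio of knockdown over control on 3 arrays, fitted over all tested probes, with a threshold of 0.05 on the Benjamini-Hochberg adjusted p. Over all tested accessions 9.94% rose and 9.32% fell, against 6.45% and 19.4% of the tested members. The median of the members' mean log2 ratios was -0.051, and that of all tested accessions was 0.0099. Values lay above 0 on all 3 arrays for 3 members and below 0 on all 3 for 10, or 9.68% and 32.3%, where the shares over all tested accessions were 31.1% and 27.5%.

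The members' directions depend on where 0 is set. They are bright probes, with 93.5% of tested accessions dimmer than the median member, and the default used here, a loess curve per array, sets 0 at a probe's own brightness. Centring each array on its median in place of loess moved the members' median log2 ratio to 0.67 and that of all tested accessions to 0.31. It gave 6 risen and 1 fallen member of 31, while 20.1% of all tested accessions rose and 0.358% fell. Using the median of tested probes alone gave a member median of 0.35, with 5 risen and 4 fallen. There 17.5% of all tested accessions rose and 6.27% fell. CYCS and UQCRH rose under all 3 of these scalings, and ATP5C1 fell under all 3. COX4I1, COX5A and SDHD lay below 0 under all 3 and missed the threshold when centred on all probes. Without replicate 2 limma called 0 members and 0 accessions in all, with 3 members above and 8 below 0 when p was not adjusted. Without replicate 1 CYCS rose and ATP5C1, COX4I1, COX5A and UQCRFS1 fell, and without replicate 3 CYCS rose and 8 members fell, among them 5 of the 6. Over all tested accessions 7.28% rose and 6.65% fell without replicate 1, and 8.61% and 8.62% without replicate 3. UQCRH lost its call without any 1 of the arrays.

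**Figure D1:**
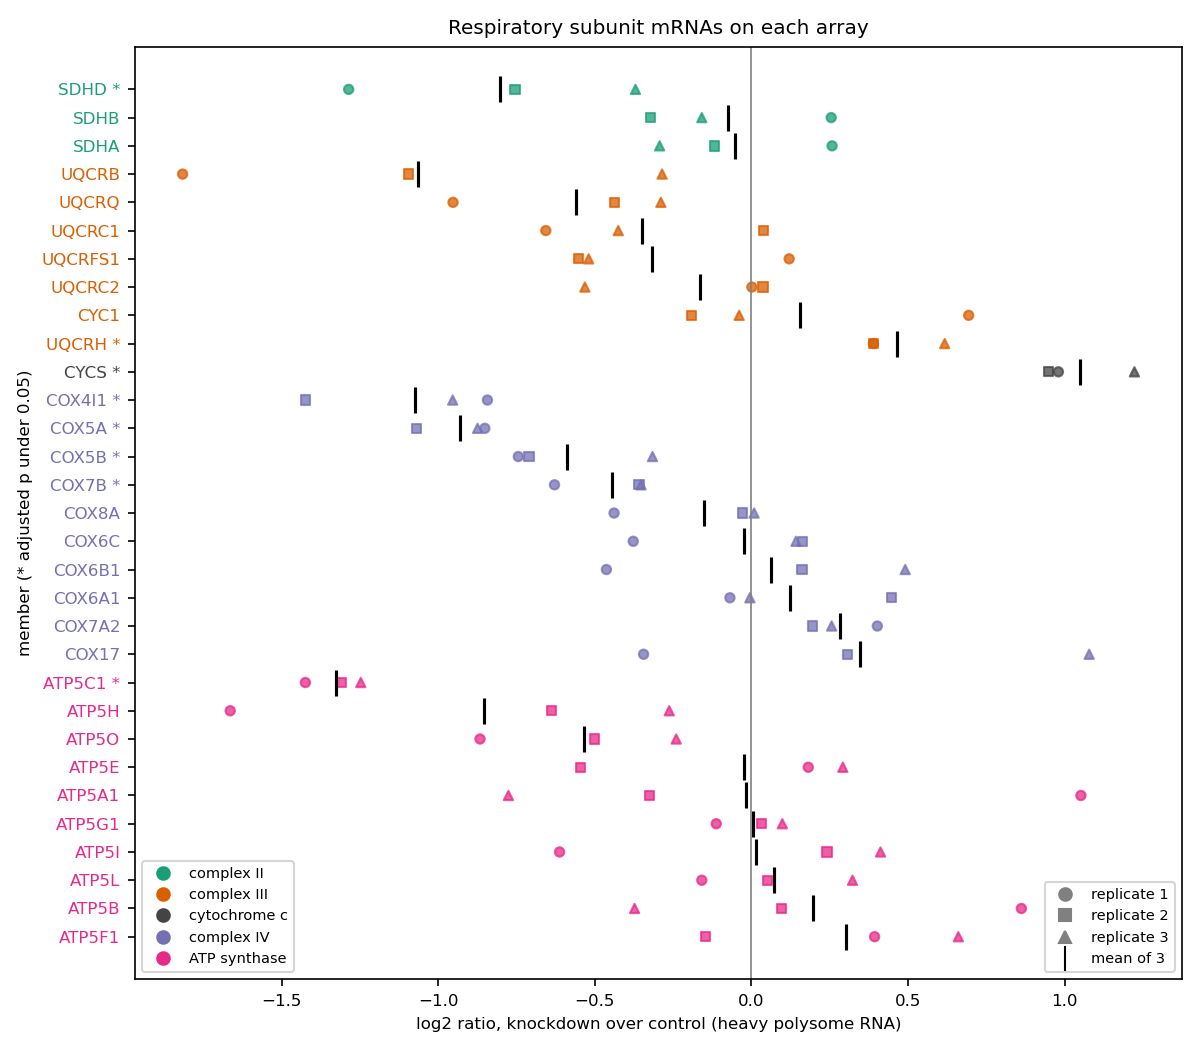
Log2 ratio of knockdown over control in heavy polysome RNA (x axis) for the 31 tested members (y axis, coloured by complex), with a symbol for each of the 3 arrays and a vertical bar for their mean; a star marks an adjusted p under 0.05. CYCS and UQCRH lie above 0 and 6 starred members lie below 0 on every array, while 18 members have values on both sides of 0.

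Cytochrome c, the small soluble carrier of electrons from complex III to complex IV, which also activates caspases when released from mitochondria, had the highest ratio of all members. CYCS (NM_018947, probe A_32_P174083) gave 0.98, 0.95 and 1.22 as log2 ratios on replicates 1, 2 and 3, averaging 1.05 ± 0.15 (SD, n = 3). All 3 values were close together and well above 0. The limma 95% interval ran from 0.78 to 1.32, and the limma adjusted p was 0.0151. The spot signals behind it were 98.5, 81 and 271 in the control channel and 444, 519 and 1763 in the knockdown channel, before any normalization, with local backgrounds of 26 to 28.5 and 57 to 64.5. In the order of mean log2 ratios, 97.4% of tested accessions lay below it. CYCS was measured by 2 more tested probes, which passed the filter on dim values through the knockdown channel alone and so lend no separate support to the rise. A_24_P376556, well above background in 2 of 3 control channels, had 1.35, 0.60 and 1.26, averaging 1.07, with a limma adjusted p of 0.0229. The dimmest, A_24_P29665, had 0.24, 0.47 and 0.46, averaging 0.39, and did not pass the test, with a limma adjusted p of 0.0591. This dimmest probe stood well above background in all 3 knockdown channels and in 1 of 3 control channels.

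Complex III also holds a c-type cytochrome. CYC1 (NM_001916), its heme-bearing subunit that hands electrons to cytochrome c, had log2 ratios of 0.69, -0.19 and -0.039 and did not pass the test, with a limma adjusted p of 0.612. Its mean log2 ratio was 0.15, and its interval, from -0.33 to 0.64, lay below that of the brightest CYCS probe. The intervals of the other CYCS probes, from 0.63 and from 0.13 upward, overlapped it. Within each array the log2 ratio of the brightest CYCS probe exceeded that of CYC1, by 0.29, 1.14 and 1.26. The dimmest CYCS probe lay below CYC1 on replicate 1, at 0.24 against 0.69, and above it on replicates 2 and 3.

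The other 6 tested subunits of complex III spanned 1.53 log2 units between their highest and lowest means. UQCRH (NM_006004), the acidic hinge protein beside cytochrome c1, had 0.39, 0.39 and 0.62, averaging 0.47 ± 0.13 (SD, n = 3), and rose with a limma adjusted p of 0.0395. Its mean ranged from 0.39 to 1.33 over the alternatives, and it did not pass the test in 7 of 18. UQCRB (NM_006294), a small subunit near the ubiquinone-binding site, had -1.82, -1.10 and -0.29. These 3 values all lay below 0, with the widest spread among the subunits of this complex, and their average of -1.07 ± 0.77 (SD, n = 3) did not pass the test, with a limma adjusted p of 0.0615. UQCRB passed it in 9 of 18 alternatives, always below 0. Within the arrays the log2 ratio of UQCRH exceeded that of UQCRB by 2.21, 1.48 and 0.90, and the mean difference stayed between 1.53 and 1.78 over 7 ways of background correction, normalization and source. Outside these 7 it was 1.49 with arrays scaled to a common spread or with array weights. It was 1.19 without replicate 1 and 1.85 without replicate 3. UQCRH and UQCRB were picked as the ends of this complex in these same data, so their difference is given without a test.

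UQCRQ (NM_014402), another small subunit, also lay below 0 on every array, at -0.95, -0.44 and -0.29, with a limma adjusted p of 0.0645. Its mean log2 ratio was -0.56 with loess and 0.37 with centring on all probes. UQCRC1 and UQCRC2, the large core proteins on the matrix side, had means of -0.35 and -0.16. UQCRFS1, the Rieske iron-sulfur protein, had a mean of -0.32, and its second probe A_23_P153586 gave -0.20. None of these 3 subunits passed the test or kept 1 sign on all arrays. Within complex III, UQCRH had the highest mean and UQCRB the lowest in each of the 18 alternatives too. Changes of filter, flags, variance model or probe choice leave both of these means as they were. Those alternatives therefore lend no separate support to the order.

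Complex IV held 4 of the 6 members that fell with loess, out of 10 of its members tested. Over all tested accessions 9.32% fell. Centring on all probes gave 0 fallen and 1 risen of the 10, while 0.358% of all tested accessions fell and 20.1% rose. COX4I1 (NM_001861) and COX5A (NM_004255), nuclear-encoded subunits that bind each other and join the mitochondrially encoded core early in assembly, fell most with loess. COX4I1 had log2 ratios of -0.84, -1.42 and -0.95, averaging -1.07 ± 0.31 (SD, n = 3), which is 0.475 of the control amount, with a limma adjusted p of 0.0177. Its second probe, A_23_P141032, had -0.13, -0.66 and -0.49, averaging -0.43, and did not pass the test, with a limma adjusted p of 0.0843. Both probes had replicate 2 as the lowest array. COX5A had -0.85, -1.07 and -0.87, averaging -0.93 ± 0.12 (SD, n = 3), which is 0.524 of the control amount, with a limma adjusted p of 0.0154. Its second probe, A_23_P44586, had -0.50, -1.14 and -0.77 and fell too, with a mean of -0.80 and a limma adjusted p of 0.0279. All 12 values of these 4 probes lay below 0. With centring on all probes the means of COX4I1 and COX5A were -0.24 and -0.14 and the limma adjusted p were 0.262 and 0.560.

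**Figure D2:**
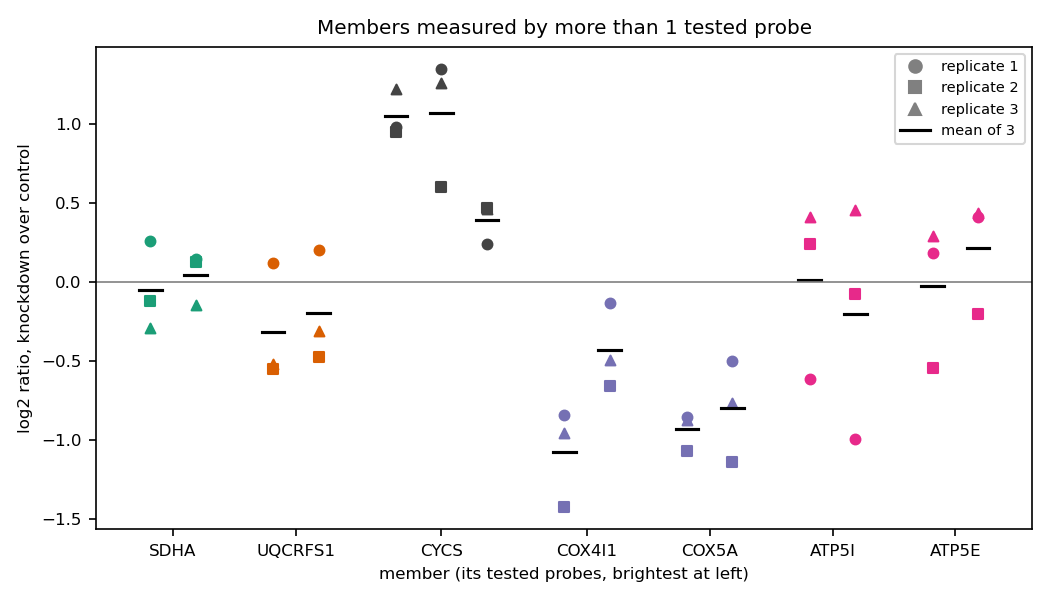
Log2 ratio of knockdown over control (y axis) for the 7 members with more than 1 tested probe (x axis, probes of a member side by side, brightest at left), with a symbol for each array and a bar for the mean of 3. The probes of CYCS all lie above 0 and those of COX4I1 and COX5A below it; the probes of SDHA, ATP5I and ATP5E have means on both sides of 0.

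COX5B (NM_001862), the zinc-binding subunit on the matrix side, fell with log2 ratios of -0.74, -0.71 and -0.32, averaging -0.59 ± 0.24 (SD, n = 3) and a limma adjusted p of 0.0354, but its mean was 0.22 with centring on all probes. COX7B (NM_001866), a small membrane subunit, fell with -0.63, -0.36 and -0.35, averaging -0.45 ± 0.16 (SD, n = 3) and a limma adjusted p of 0.0474, but its mean was 0.35 with centring on all probes and 0.027 with centring on tested probes. COX7B passed the test with the smallest change of all called members and lost its call in 12 of 18 alternatives, in 2 of them with the sign turned. COX5B lost its call in 8 of 18.

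The other 6 tested members of complex IV did not pass the test. COX7A2 (NM_001865), a small membrane subunit, was above 0 on every array with 0.40, 0.19 and 0.26, averaging 0.28 ± 0.11 (SD, n = 3) and a limma adjusted p of 0.113. It passed the test under both centrings in place of loess, with a mean of 1.17 and 0.85. COX17 (NM_005694), a copper chaperone that delivers copper for assembly and is not part of the finished enzyme, had the highest mean of this complex. Its values of -0.34, 0.31 and 1.08 were spread over both sides of 0, with a mean of 0.35 ± 0.71 (SD, n = 3) and a limma adjusted p of 0.410. COX6A1, COX6B1, COX6C and COX8A had means between -0.15 and 0.12, and none had 1 sign on all arrays.

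Some subunits of complex IV differed from each other within each array. The SD over the means of its 10 tested members was 0.50, close to the 0.47 over all tested accessions. The log2 ratio of COX7A2 exceeded that of COX4I1 by 1.24, 1.62 and 1.21 on the 3 arrays, and that of COX6A1 exceeded it by 0.77, 1.87 and 0.95. Over the same 7 ways the first difference stayed between 1.32 and 1.43 and the second between 1.19 and 1.23. All of these use the brighter COX4I1 probe. With its other probe, A_23_P141032, the differences were smaller, at 0.54, 0.85 and 0.75 for COX7A2, averaging 0.71, and at 0.065, 1.11 and 0.49 for COX6A1, averaging 0.55. COX17, with the highest mean of this complex, exceeded COX4I1 at its brighter probe by 0.50, 1.73 and 2.03, averaging 1.42 ± 0.81 (SD, n = 3). COX4I1 had the lowest mean, while COX7A2 and COX6A1 lay below COX17 in the order. All these pairs were picked after the values were seen, so the differences are given without a test.

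ATP synthase had 10 tested members and a median log2 ratio of -0.0054. ATP5C1 (NM_005174) encodes gamma, the central shaft that turns inside the catalytic head, and it had the lowest ratio of all members. Its log2 ratios were -1.42, -1.31 and -1.25, averaging -1.33 ± 0.090 (SD, n = 3), which is 0.399 of the control amount. The limma 95% interval ran from -1.58 to -1.08 and the limma adjusted p was 0.0142. Only 0.565% of tested accessions had a lower mean. The spot signals before normalization were 182, 143 and 572.5 in the control channel and 136.5, 152 and 560.5 in the knockdown channel. Local backgrounds were 24 to 31 in the control channel and 56.5 to 59 in the knockdown channel. The mean log2 ratio was -1.80 with normexp at offset 0 and -2.11 with Agilent's processed log ratio. The 3 arrays were close together for this member, and it fell under 17 of 18 alternatives, with means from -2.11 to -0.82. The exception was the fit without replicate 2, with a limma adjusted p of 0.117.

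The partners of the shaft in the catalytic head did not pass the test. ATP5A1 (NM_001001937), alpha, had log2 ratios of 1.05, -0.33 and -0.78, and ATP5B (NM_001686), beta, had 0.86, 0.097 and -0.37. Both were highest on replicate 1 and lowest on replicate 3, with SDs of 0.95 and 0.62, and their limma adjusted p were 0.979 and 0.608. Their intervals, from -0.91 to 0.88 and from -0.42 to 0.81, leave room for a sizeable change in either direction. ATP5E (NM_006886), epsilon, which sits on the shaft, had 0.18, -0.55 and 0.29.

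The stalk that holds the head still was measured by 3 members, which differed among themselves. ATP5H (NM_006356), subunit d, had -1.66, -0.64 and -0.26, and ATP5O (NM_001697), the subunit that ties the stalk to the head, had -0.87, -0.50 and -0.24. Both lay below 0 on every array and were lowest on replicate 1. The limma adjusted p were 0.0913 and 0.0620, short of the threshold. With centring on all probes their means were 0.053 and 0.39 instead of -0.85 and -0.54. ATP5F1 (NM_001688), subunit b of the same stalk, had the highest mean of this complex, 0.30 ± 0.41 (SD, n = 3), from values of 0.39, -0.15 and 0.66, with a limma adjusted p of 0.276. The membrane subunits ATP5G1 (the proton-carrying c ring), ATP5I (e) and ATP5L (g) had means of 0.0060, 0.013 and 0.071 with loess, and of 0.72, 0.92 and 1.01 with centring on all probes. ATP5L and ATP5E passed the test upward under both centrings, with limma adjusted p of 0.0378 and 0.0184 on all probes and 0.0347 and 0.0239 on tested probes. With loess the interval of ATP5G1, from -0.25 to 0.26, was the narrowest of the 3 membrane subunits.

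Complex II was measured by 3 of its 4 members, and all 3 means lay below 0 with loess. SDHD (NM_003002), a membrane anchor that binds heme and ubiquinone, fell with log2 ratios of -1.29, -0.76 and -0.37, averaging -0.80 ± 0.46 (SD, n = 3), which is 0.573 of the control amount, and a limma adjusted p of 0.0436. The values all lay below 0 and were lowest on replicate 1. Its mean stayed below 0 in all 18 alternatives, from -1.24 to -0.31, and it lost its call in 4 of them. SDHD had 3 further probes, none of them tested, each well above background in at most 2 of 3 knockdown channels, with means of 0.096, 0.046 and 0.013. SDHA (NM_004168), the flavoprotein that oxidizes succinate, had 0.26, -0.12 and -0.29, and SDHB (NM_003000), the iron-sulfur subunit, had 0.25, -0.32 and -0.16. The limma adjusted p were 0.818 and 0.738, and both means were above 0 under either centring.

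The members not tested were SDHC (NM_003001), the other membrane anchor of complex II, and COX7C (NM_001867), a small membrane subunit of complex IV. SDHC was well above background in 2 of 3 control and 1 of 3 knockdown channels. COX7C was so in 0 of 3 control and in 1 of 3 knockdown channels, with control signals of 26, 26.5 and 29.5 against 26, 27 and 27 for negative control spots. The other 6 accessions, those of UQCR10, ATP5J, ATP5D and ATP5G3 and a second accession each of ATP5A1 and ATP5C1, matched no spot and were not analysed here.

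**Figure D3:**
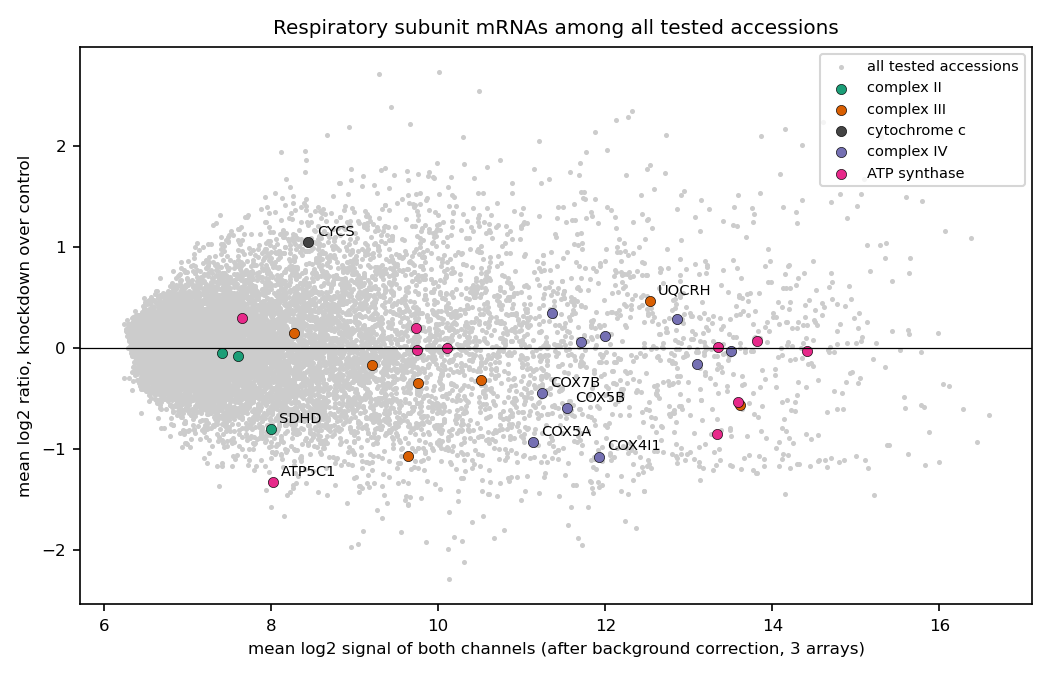
Mean log2 ratio of knockdown over control on 3 arrays (y axis) against the mean log2 signal of both channels (x axis) for all 14522 tested accessions (grey) and the 31 tested members (coloured by complex; those called are named). Most members lie at the bright end; the probes of CYCS, SDHD and ATP5C1 lie to the left of those of the called subunits of complex IV.

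Values of the members were spread widely over the arrays. The median SD between arrays was 0.31 over the tested members and 0.20 over all tested accessions. The members were brighter, with a median of the mean log2 signal of 11.2 against 7.39, and the offset pulls ratios of dim probes toward 0. Accessions of like brightness were not compared, for this SD or for those below. Replicate 1 gave the lowest of the 3 values for 18 of the 31 members, replicate 2 for 9 and replicate 3 for 4. The same count over all tested accessions is not given here. The median over members was -0.34, -0.15 and -0.24 on replicates 1, 2 and 3, against 0.0049, 0.021 and 0.017 over all tested accessions. The SD over members was 0.75, 0.54 and 0.56 on replicates 1, 2 and 3, against 0.63, 0.49 and 0.44 over all tested accessions. As a description over the 31 members, which share arrays, dye and slide, Pearson's r was 0.62 for replicates 1 and 2. It was 0.38 for replicates 1 and 3 and 0.76 for replicates 2 and 3. Over all tested accessions the 3 values were 0.75, 0.64 and 0.70.

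**Figure D4:**
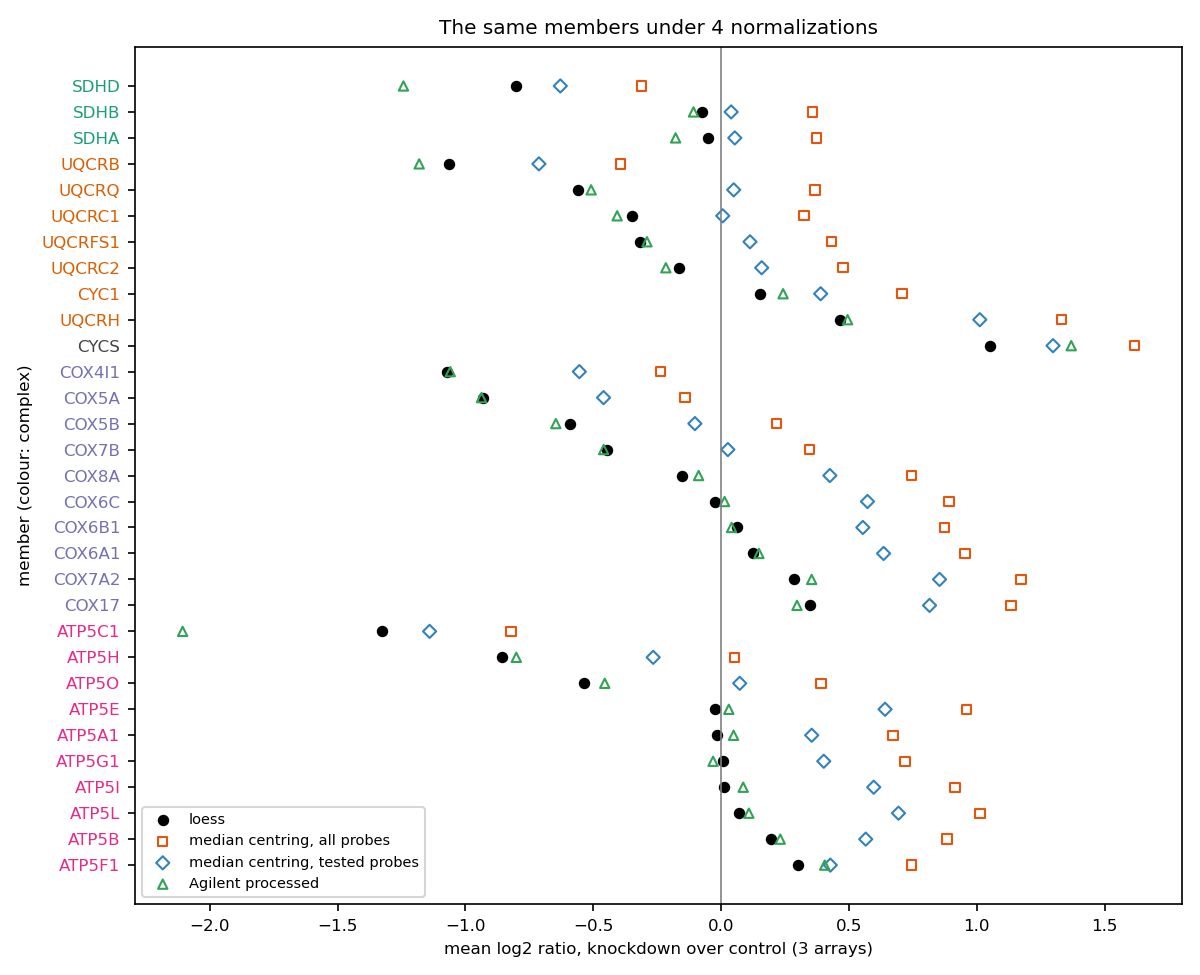
Mean log2 ratio of knockdown over control on 3 arrays (x axis) for the 31 tested members (y axis, coloured by complex) under loess, centring on the median of all probes or of the tested probes, and Agilent's processed log ratio. The centrings shift bright members to the right, leaving 5 of 31 below 0 with all probes and 7 with tested probes, against 19 with loess, and CYCS and ATP5C1 stay on their sides of 0 in all 4.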

How the data were processed

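The deposited scanner tables hold spot intensity values which, per the file headers, the authors extracted with Agilent Feature Extraction 10.9.1.1 on design 014850; the submitters' processing notes name version 10.9 and limma. The deposited tables also give flags of 0 or 1 per spot and a log10 ratio of processed Cy5 over Cy3 signals. The authors' deposited value table holds log2 ratios of unstated scale, centring and direction. They followed loess-normalized Cy5 over Cy3 without background correction (Pearson's r 0.995, 0.994 and 0.994; positive slopes; medians 0, 0.01 and 0.01).

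Median spot signals were corrected with normexp (offset 50) and normalized by loess within each array in R 4.3.3 with limma 3.58.1. Flagged spots were left out (142 to 150 of 43376 per array, none of a member). Tested probes, 18146 of 41000, were those which every array showed well above background in the same channel, with lmFit and eBayes, 2-sided, adjusted by Benjamini-Hochberg over all of them. The offset pulls ratios of dim probes toward 0. With 3 arrays, the smallest p of an exact sign-flip test is 0.25, and their number limits the precision. The test was tried on simulated data first. In 18 alternatives, the correction of background, normalization, value source, filter, flags, variance model, weights or probe choice was changed, or a replicate was left out. Values on each array are given for called members and for the highest and lowest of each complex; further members were named after their values were seen. Members and lists were chosen with earlier results of these data known. The lists of other pathway genes, the cell type markers and the sequence features were not computed, because no table of symbols or sequences was used here.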

Additional observations from a re-analysis of the deposited data

How the results depend on the processing

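Alternatives for 31 members under 18 settings gave 558 values of single members, of which 437 kept their direction and side of the threshold and 62 changed sign. Calls were lost in 38 values and gained in 26, with a change of sign in 3 and 2 of these. COX5B and COX7B were the called members whose mean changed sign, and neither passed the test there. Against 2 risen and 6 fallen, 1 member rose with normexp at offset 0, Agilent's processed log ratio, the series matrix values or an intensity trend in the variance, and 3 fell with no filter on dim probes. The shares of all tested accessions that rose were 15.8%, 15.0%, 13.7% and 16.4% in that order, and 2.61% fell with no filter. In the other direction, 9 fell with the series matrix values, 9 with arrays scaled to a common spread and 7 with array weights. Of all tested accessions 12.1%, 10.7% and 10.3% fell in these settings, against 9.32% in the main fit. Leaving out 1 replicate gave 0 to 1 risen and 0 to 8 fallen members, and member medians of -0.19 to -0.10, with 0 calls in limma without replicate 2 (by unadjusted p under 0.05, 3 members higher and 8 lower). For this unadjusted count no share over all tested accessions is given, and nothing is read from it. Over all tested accessions 0 to 8.61% rose and 0 to 8.62% fell in these fits.

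Median centring on all probes gave 6 risen and 1 fallen member and a median of 0.67, and the tested probes' median gave 5 risen and 4 fallen and 0.35. Upward calls over all tested accessions went from 1443 of 2797 with loess to 2913 of 2965 and 2537 of 3448. Of all tested accessions 9.94% rose and 9.32% fell with loess. The shares were 20.1% and 0.358% with all probes, and 17.5% and 6.27% with the tested probes. With all probes, members below 0 under loess turned to 0.37 (SDHA), 0.36 (SDHB), 0.32 (UQCRC1), 0.48 (UQCRC2), 0.43 (UQCRFS1), 0.37 (UQCRQ), 0.22 (COX5B), 0.35 (COX7B), 0.89 (COX6C), 0.74 (COX8A), 0.67 (ATP5A1), 0.96 (ATP5E), 0.053 (ATP5H) and 0.39 (ATP5O). With the tested probes they turned to 0.054 (SDHA), 0.040 (SDHB), 0.0065 (UQCRC1), 0.16 (UQCRC2), 0.11 (UQCRFS1), 0.050 (UQCRQ), 0.027 (COX7B), 0.57 (COX6C), 0.43 (COX8A), 0.35 (ATP5A1), 0.64 (ATP5E) and 0.073 (ATP5O).

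The other sign changes were of uncalled members. With offset 0 they were ATP5G1 (-0.0015), ATP5E (0.19), COX6C (0.13) and ATP5A1 (0.0012), and with no background correction ATP5G1 (-0.010), ATP5E (0.064) and COX6C (0.034). Agilent's ratio turned ATP5G1 (-0.031), ATP5E (0.030), COX6C (0.014) and ATP5A1 (0.049), and the series matrix ATP5A1 (0.03). COX6C was 0.0023 with arrays scaled to a common spread and 0.022 with array weights. The second brightest probe gave -0.20 for ATP5I, 0.043 for SDHA and 0.22 for ATP5E, and the mean over probes 0.096 for ATP5E and -0.096 for ATP5I. Leaving out a replicate turned CYC1 (-0.12 to 0.33), ATP5B (-0.14 to 0.48), COX6C (-0.12 to 0.15), SDHB (-0.24 to 0.048), ATP5G1 (-0.040 to 0.065), ATP5E (-0.18 to 0.24) and ATP5A1 (-0.55 to 0.36). It also turned ATP5I (-0.19 to 0.33), COX6A1 (-0.037 to 0.22), COX6B1 (-0.15 to 0.33), UQCRC2 (-0.27 to 0.019), COX17 (-0.019 to 0.69), ATP5L (-0.054 to 0.19) and SDHA (-0.21 to 0.070). Beyond what an alternative fixes itself (fewer arrays, more probes tested), the cause was not tested. The main test is already paired, since each ratio sets knockdown against control on 1 array, and no further block was fitted.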
